A study of Homo sapiens with 24 samples.

Results

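Microtubules are polymers of heterodimers of alpha and beta tubulin, and human cells make both proteins from families of similar genes, the isotypes. The expression of 10 of these genes, 4 alpha (TUBA1A, TUBA1B, TUBA1C and TUBA4A) and 6 beta (TUBB, TUBB2A, TUBB2B, TUBB3, TUBB4B and TUBB6), was examined among the 58884 genes listed. They were chosen by name, as genes for a reported SETD2 substrate, and not by a rule on their values. Earlier results of these data were known when they were chosen. They are not all the tubulin genes expressed, since TUBB4A, for example, was left out at a higher TPM than TUBB3 and TUBA4A. The cells were HEK293T, an immortalized line from human embryonic kidney, and RNA-Seq of 10 libraries was analysed. A first table, labelled batch 1, holds 2 libraries of untreated wild-type (WT) cells and 2 of untreated SETD2 knockout (KO) cells. A second, labelled batch 2, holds 2 libraries of untreated KO cells, 2 of KO cells given full-length SETD2 (SETD2 FL) and 2 of KO cells given its C-terminal segment (SETD2 C, called N3 in the labels, residues 1404 to 2564). The constructs were driven by a CMV promoter and introduced by transfection, and no library of KO cells with an empty vector was among the 10. Transfection and construct therefore cannot be told apart in the comparisons with KO. Whether the replicates were separate cultures is not given in the sources used here, so p-values measure the spread between these libraries, which may be technical.

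The enzyme SETD2 is best known for trimethylating lysine 36 of histone H3 on transcribed genes. It has also been reported to methylate alpha tubulin at lysine 40 on dividing cells' microtubules, the lysine that is otherwise acetylated on stable microtubules. Tubulin transcripts are held in check by autoregulation. When free tubulin is abundant, the factor TTC5 recognizes the first amino acids of a nascent tubulin chain and recruits SCAPER and the CCR4-NOT deadenylase, which degrade the tubulin mRNA. RNA-Seq measures the transcripts and neither of these protein marks.

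The first 30 coding bases are shown for 5 members because the first 4 codons, in capitals, encode the residues through which TTC5 recognizes a nascent chain.
TUBA1B: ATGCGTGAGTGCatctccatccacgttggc
TUBA4A: ATGCGTGAATGCatctcagtccacgtgggg
TUBB: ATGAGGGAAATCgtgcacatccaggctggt
TUBB2A: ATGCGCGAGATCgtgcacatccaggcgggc
TUBB3: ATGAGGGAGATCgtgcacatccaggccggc
The 30 coding bases around codon 40 (capitals) are shown for 2 alpha members because they hold the lysine that SETD2 has been reported to methylate. They were identical in TUBA1A, TUBA1B and TUBA1C.
TUBA1B: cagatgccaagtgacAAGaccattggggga
TUBA4A: cagatgcccagtgacAAGaccattggtgga
These sequences come from the reference transcripts of GENCODE 44 on GRCh38.

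The genes lie on 6 chromosomes of GRCh38. TUBA1B (49127782 to 49131397, minus strand), TUBA1A (49184686 to 49189080, minus strand) and TUBA1C (49188736 to 49274600, plus strand) are neighbours on chromosome 12, and TUBA4A is on chromosome 2 (219249710 to 219277902, minus strand). TUBB2A (3153497 to 3157544, minus strand), TUBB2B (3223324 to 3231730, minus strand) and TUBB (30717435 to 30725538, plus strand) are on chromosome 6. TUBB3 is on chromosome 16 (89921392 to 89938761, plus strand), TUBB4B on chromosome 9 (137241287 to 137243707, plus strand) and TUBB6 on chromosome 18 (12307669 to 12344320, plus strand). Each reference transcript has 4 exons. The coding sequences of TUBB2A and TUBB2B were 98.1% identical, those of TUBA1A and TUBA1B 97.2%, and those of TUBB and TUBB3 81.6%. Reads of close paralogs can therefore be divided wrongly between them. Of all stretches of 75 bases, the length of a read, some were found in no other gene on either strand. This unique share was 22.8% for TUBA1B, 40.5% for TUBB2A and 47.9% for TUBB2B, against 76.0% for TUBB, 91.0% for TUBB4B and 100% for TUBB6. For TUBA1B, 42.2% of the stretches lay in other members, and the gene sharing most was TUBA1B-AS1 on the opposite strand. For TUBB3 the unique share was 7.4%, because an overlapping gene on the same strand (AC092143.1) contains most of its transcript. That gene was listed at a TPM of at most 0.30 in every library, and the 39 tubulin pseudogenes summed to 0.414% to 0.633% of the members' TPM.

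Expression was given as TPM, a measure of transcript abundance that corrects for transcript length and sums to the same total in each sample, so sequencing depth is unknown. Between 24306 and 27104 genes were above 0, most in the SETD2 C libraries. In the first table the SETD2 transcript stood at 16.2 and 16.3 TPM in libraries labelled KO, above the 12.6 and 14.8 TPM of libraries labelled WT. The transcript therefore does not check the knockout. The H3K36me3 mark, by which the study characterized its KO cells, was not analysed here. In the second table it was 11.99 and 12.15 TPM in KO, 439 and 422 in SETD2 FL cells and 1329 and 1264 in SETD2 C cells. VIM, NEFL, NEFM, KRT8 and KRT18, which this line expresses, were detected in every library at levels that differed between groups. The leukocyte gene PTPRC, the erythroid gene HBB and the alveolar gene SFTPC did not exceed a TPM of 0.08. The hepatocyte gene ALB reached 0.38 and the podocyte gene NPHS1 0.23. The fibroblast gene COL1A1 was detected, at 6.43 to 10.23 TPM in the first table and 6.83 to 12.06 in the second. The 13 mitochondrially encoded protein genes took 6.73% and 5.88% of TPM in KO, 10.4% and 7.43% in SETD2 FL cells and 2.44% and 2.78% in SETD2 C cells, and 22.6% in WT replicate 1 against 11.8% to 13.8% in the other libraries of the first table. For the tests, libraries were brought to a common scale by the median ratio across genes, and fold changes are on the scale log2(scaled TPM + 0.5), which understates changes of low genes. In bulk RNA, fewer cells of a type and less RNA per cell cannot be told apart.

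The isotypes spanned a wide range of expression. In the second table the order of median TPM over the 6 libraries was TUBA1B (1478), TUBB (917), TUBA1C (470), TUBB4B (227), TUBA1A (139), TUBB2B (56.0), TUBB6 (49.2), TUBB2A (41.7), TUBB3 (7.99) and TUBA4A (4.46). The ranges of the 5 most abundant genes did not overlap each other. Those of TUBB2B (51.7 to 61.4) and TUBB6 (40.04 to 53.5) overlapped, as did those of TUBB6 and TUBB2A (31.8 to 47.2), and those of TUBB3 (6.27 to 17.6) and TUBA4A (3.38 to 10.4). TUBA1B and TUBA1C, the broadly expressed alpha isotypes, and TUBB, the broadly expressed beta isotype, thus stood above the isotypes known best from neurons, TUBA1A, TUBB2A, TUBB2B and TUBB3. The same 5 genes were the most abundant in the first table, in the same order. All 10 members together made up 0.310% to 0.359% of TPM in the second table and 0.405% to 0.498% in the first.

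**Figure D1:**
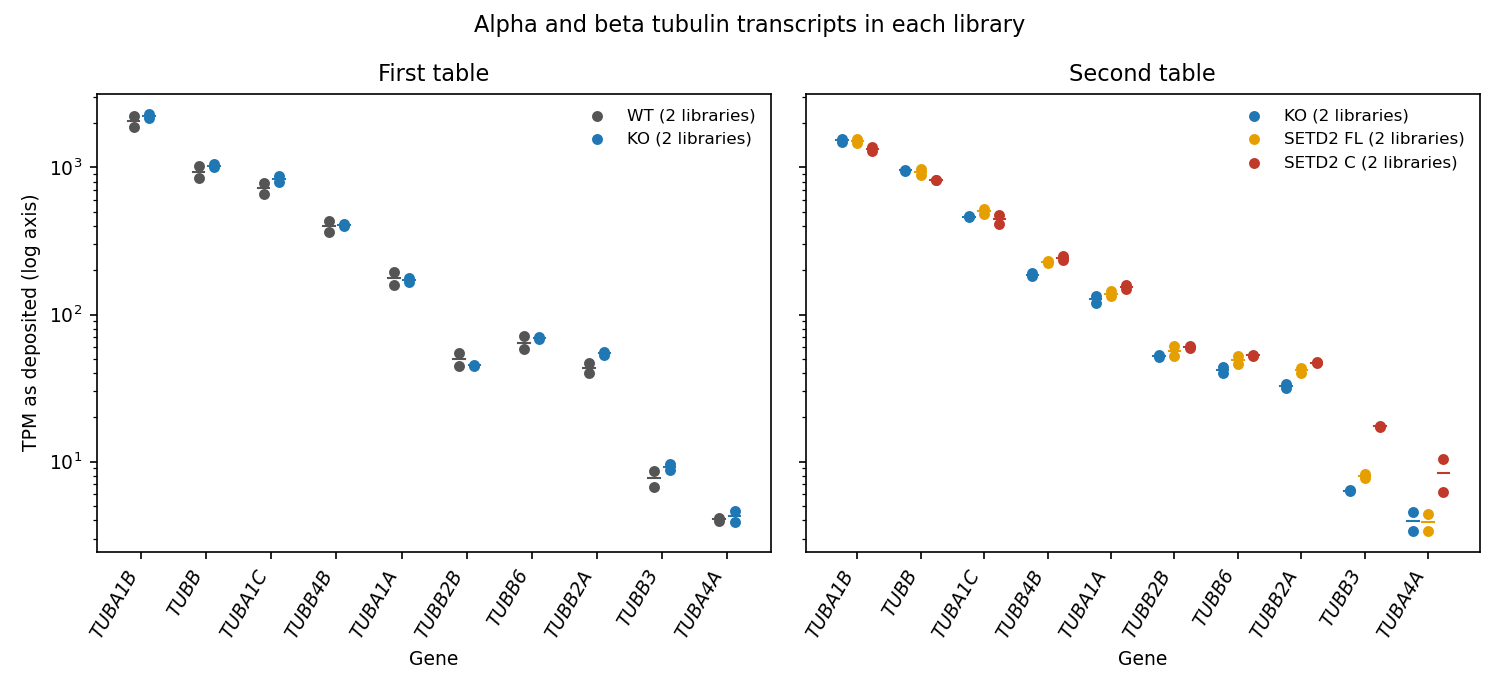
TPM of the 10 tubulin genes in each library on a log axis, with WT and KO of the first table on the left and KO, SETD2 FL and SETD2 C of the second on the right. Points are libraries and short lines are means of 2. The SETD2 C points of TUBB3 (17.6 and 17.2) stand clear of all other libraries, while those of TUBB (826 and 823) lie below them.

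SETD2 C expression in KO cells was accompanied by opposite movements within the family. Relative to KO, 4 members were higher (TUBB3, TUBA4A, TUBB2A and TUBB4B) and 3 lower (TUBB, TUBA1B and TUBA1C), at an adjusted p of at most 0.05 from limma with Benjamini-Hochberg adjustment over the 15933 genes tested, and all 10 members were tested. Among all genes tested, 21.1% were higher and 15.1% lower by this rule, so changes in both directions were common in this comparison. At an unadjusted p under 0.05 there were 8 members, as were 47.1% of all genes. The scaled values of the groups did not overlap for 6 members that were higher and 3 that were lower, as for 40.5% and 30.8% of all genes. The 3 genes that fell were the 3 most abundant members, and the genes that rose included the 2 least abundant. The median log2 fold change of the members was 0.15, against 0.05 over all genes tested. Over genes of at least 1 TPM in every library, the set used for scaling, the median was 0.0019. How the change varied with abundance over all genes was not tested.

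TUBB3, the beta isotype typical of neurons and also found in many tumours, had the largest change. Its TPM was 6.42 and 6.27 in KO, 7.77 and 8.20 in SETD2 FL cells and 17.6 and 17.2 in SETD2 C cells. Both SETD2 C libraries thus lay well above all 4 others, and both SETD2 FL libraries lay above both KO libraries. The rise over KO was 2.37-fold (log2 fold change of 1.24, SE 0.08, adjusted p = 4.58e-05 from limma, n = 2 against 2), ranked 315 of 15933 genes from the largest rise, and it was the one member to reach 2-fold, as did 3.75% of all genes in the higher direction and 0.314% in the lower. Over SETD2 FL it was 1.93-fold (log2 fold change of 0.95, SE 0.08, adjusted p = 0.000148). The filament genes named above as expressed by this line were also highest in SETD2 C cells, by differing amounts. NEFL, a neurofilament subunit, was at 63.6 and 61.3 TPM in KO and 156 and 168 TPM in SETD2 C cells, NEFM, another, at 125 and 120 TPM against 289 and 341 TPM, and the keratin KRT8 at 28.2 and 29.3 TPM against 98.1 and 97.9 TPM. KRT18, another keratin, was at 77.9 and 72.1 TPM in KO against 97.2 and 95.7 TPM in SETD2 C cells. VIM was at 791 and 801 TPM against 909 and 926 TPM, and after scaling at 819 and 837 against 856 and 866. Scaled values of SETD2 C lay wholly above those of KO for 40.5% of all genes tested. The relation of the filament genes to the rise of TUBB3 was not tested.

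TUBA4A, an alpha isotype whose gene does not encode the C-terminal tyrosine of other alpha tubulins, was the least abundant member. Its TPM was 3.39 and 4.54 in KO, 4.38 and 3.38 in SETD2 FL cells, and 10.4 and 6.25 in SETD2 C cells. The SETD2 C libraries were above the other 4 but differed widely from each other. The log2 fold change from KO was 0.82 (SE 0.24, adjusted p = 0.0317 from limma). Without SETD2 C replicate 1 it was 0.47 (adjusted p = 0.153) and without KO replicate 2 it was 0.62 (adjusted p = 0.141), so the call rested on single libraries. STK16 overlaps TUBA4A on the opposite strand, and its TPM was 26.4 and 26.5 in KO against 25.5 and 26.7 in SETD2 C cells.

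TUBB2A, a beta isotype abundant in neurons, rose less. Its TPM was 31.8 and 33.6 in KO, 40.2 and 43.2 in SETD2 FL cells and 47.2 and 46.8 in SETD2 C cells. No library of one group overlapped another group in these TPM values. The rise from KO to SETD2 C was 1.29-fold (log2 fold change of 0.37, SE 0.06, adjusted p = 0.00302 from limma). Its near-identical neighbour TUBB2B had a TPM of 53.0 and 51.7 in KO, 52.3 and 60.8 in SETD2 FL cells and 59.0 and 61.4 in SETD2 C cells, and did not pass the test (log2 fold change of 0.05, 95% interval from -0.10 to 0.21).

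TUBB4B, a widely expressed beta isotype also used in cilia, had a TPM of 191 and 183 in KO, 223 and 230 in SETD2 FL cells and 251 and 236 in SETD2 C cells. Both transfected groups lay above KO. The log2 fold change from KO to SETD2 C was 0.23 (SE 0.05, adjusted p = 0.0127 from limma), and it no longer passed the test without KO replicate 4 (0.21, adjusted p = 0.0686) or without SETD2 C replicate 1 (0.18, adjusted p = 0.0789). TUBB6, a beta isotype of many non-neuronal tissues, had a TPM of 44.3 and 40.04 in KO, 46.3 and 52.4 in SETD2 FL cells and 53.5 and 52.1 in SETD2 C cells (log2 fold change of 0.18, adjusted p = 0.0822, not called).

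TUBB, the main beta isotype of dividing cells, moved the other way. Its TPM was 960 and 946 in KO, 888 and 977 in SETD2 FL cells and 826 and 823 in SETD2 C cells. The SETD2 C libraries were below all 4 others, and those of KO and SETD2 FL overlapped. The fall from KO was 1.28-fold (log2 fold change of -0.36, SE 0.05, adjusted p = 0.00178 from limma). The antisense gene AL662797.1, which overlaps TUBB, was also lowest in SETD2 C cells (6.58 and 3.95 TPM, against 11.4 and 13.5 in KO). The strand setting of the counting is not known, and the part of antisense reads in the fall was not tested.

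TUBA1B, the most abundant member and a broadly expressed alpha isotype, had a TPM of 1556 and 1493 in KO, 1463 and 1567 in SETD2 FL cells and 1368 and 1295 in SETD2 C cells. The SETD2 C libraries were again the lowest. The fall from KO was 1.27-fold (log2 fold change of -0.34, SE 0.05, adjusted p = 0.00276 from limma), and with quantile normalization it was -0.16 (adjusted p = 0.0552). TUBA1B-AS1, listed as AC011603.2 on the opposite strand, was at 44.7 and 53.2 TPM in KO and 27.5 and 22.1 TPM in SETD2 C cells, and its part in the fall was likewise not tested.

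TUBA1C had a TPM of 457 and 468 in KO, 484 and 519 in SETD2 FL cells and 472 and 412 in SETD2 C cells. In TPM as deposited the SETD2 C libraries lay on both sides of KO, and only after scaling were both lower (log2 fold change of -0.22, SE 0.07, adjusted p = 0.0443 from limma). This call was lost without KO replicate 2 (-0.24, adjusted p = 0.0932), without KO replicate 4 (-0.19, adjusted p = 0.158), without SETD2 C replicate 2 (-0.11, adjusted p = 0.244) and without scaling (-0.07, adjusted p = 0.491). TUBA1A, the alpha isotype of developing neurons, had a TPM of 121 and 134 in KO, 144 and 133 in SETD2 FL cells and 159 and 150 in SETD2 C cells, and its scaled values overlapped between SETD2 C and KO (log2 fold change of 0.13, adjusted p = 0.235, not called).

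The counts from KO to SETD2 C differed between scalings, for the members and for all genes alike. Without scaling, 6 members were called higher and 2 lower, where 5509 of the 15933 genes were higher and 1117 lower and the median of all genes moved from 0.05 to 0.18. With TPM recomputed without mitochondrially encoded genes and SETD2, and with no median-ratio scaling, the members were also 6 higher and 2 lower, where 4592 of 15919 genes were higher and 1474 lower and the median was 0.13. With quantile normalization 4 members were higher and 1 lower, where 2457 genes were higher and 2786 lower and the median was -0.025. TUBB3 and TUBB2A were called higher and TUBB lower in 13 of 13 other settings, and each of the 10 members kept its direction in all 13 settings. In TPM recomputed without mitochondrially encoded genes and SETD2, where all genes shifted upward as just given, the log2 fold change was 1.34 for TUBB3, 0.47 for TUBB2A and -0.26 for TUBB.

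**Figure D2:**
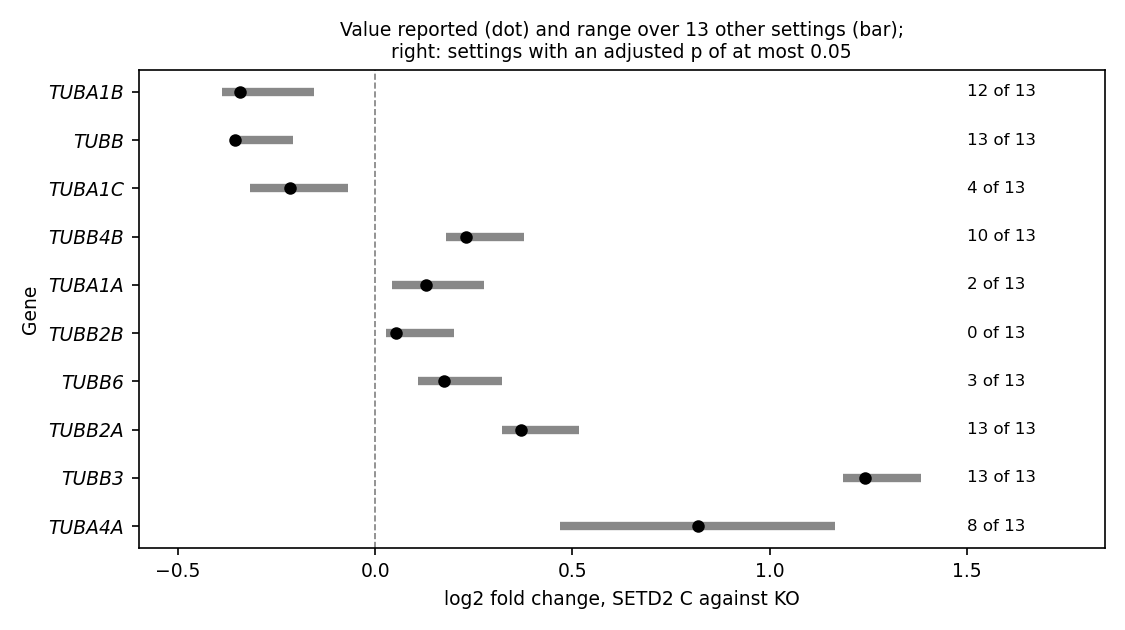
Log2 fold change from KO to SETD2 C of each tubulin gene, with the reported value as a dot, the range over 13 other settings as a grey bar, and at the right the number of those settings in which the gene passed the test. TUBB3 spans 1.19 to 1.39 and TUBB -0.36 to -0.21, both past the test in 13 of 13, while TUBA1C passed in 4.

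SETD2 FL expression in KO cells was not accompanied by a call of any member against KO, where 0.176% of all genes tested were called higher and 0.0314% lower by limma. At an unadjusted p under 0.05 there were 4 members (TUBB2A, TUBB3, TUBB4B and TUBB6), all higher with SETD2 FL, and 15.9% of all genes were at that level in either direction. None reached a called 2-fold change (0.0753% of all genes higher and 0.00628% lower), and the groups did not overlap for 5 members that were higher and 1 that was lower (24.8% and 23.4% of all genes). Their log2 fold changes were 0.33 for TUBB2A (SE 0.06, adjusted p = 0.0998), 0.29 for TUBB3 (SE 0.08, adjusted p = 0.164), 0.26 for TUBB4B (SE 0.05, adjusted p = 0.123) and 0.20 for TUBB6 (SE 0.07, adjusted p = 0.237). TUBB2A passed in 1 of 13 other settings (0.39, adjusted p = 0.0482), TPM recomputed without mitochondrially encoded genes and SETD2 and with no median-ratio scaling, in which the median of all genes also moved, from 0.0056 to 0.063. The 95% intervals of TUBA1B (-0.15 to 0.10) and TUBB (-0.17 to 0.06) included 0.

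Set against SETD2 FL, SETD2 C had 2 members higher (TUBB3 and TUBA4A) and 3 lower (TUBA1B, TUBA1C and TUBB), where 21.4% of all genes tested were higher and 16.8% lower. At an unadjusted p under 0.05 there were 5 members and 48.8% of all genes, and no member reached a called 2-fold change, as 3.36% of all genes did upward and 0.421% downward. The groups did not overlap for 3 members that were higher and 3 that were lower (40.3% and 32% of all genes). This comparison shares transfection and promoter, but the TPM listed for SETD2 was also higher with SETD2 C (1329 and 1264, against 439 and 422 TPM). TPM corrects for the length of reference transcripts, and SETD2 C is only a segment of SETD2. How the gap in TPM relates to transcript number was not tested, nor was its part in the changes of the members. TUBA1B had a log2 fold change of -0.31 (SE 0.05, adjusted p = 0.00348 from limma), and TUBB of -0.30 (SE 0.05, adjusted p = 0.0029), which without scaling was -0.18 (adjusted p = 0.0529). TUBA1C was at -0.31 (SE 0.07, adjusted p = 0.0107) and did not pass without scaling (-0.18, adjusted p = 0.0739), without SETD2 FL replicate 4 (-0.29, adjusted p = 0.0504) or without SETD2 C replicate 2 (-0.21, adjusted p = 0.0549). TUBA4A was at 0.86 (SE 0.24, adjusted p = 0.0248) and did not pass without SETD2 FL replicate 4 (0.67, adjusted p = 0.123) or without SETD2 C replicate 1 (0.51, adjusted p = 0.119). TUBB2A, TUBB2B, TUBB4B, TUBB6 and TUBA1A did not pass the test, with log2 fold changes between -0.03 and 0.04. For TUBB4B the 95% interval of the difference was -0.15 to 0.09, and for TUBB2A it was -0.09 to 0.18.

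**Figure D3:**
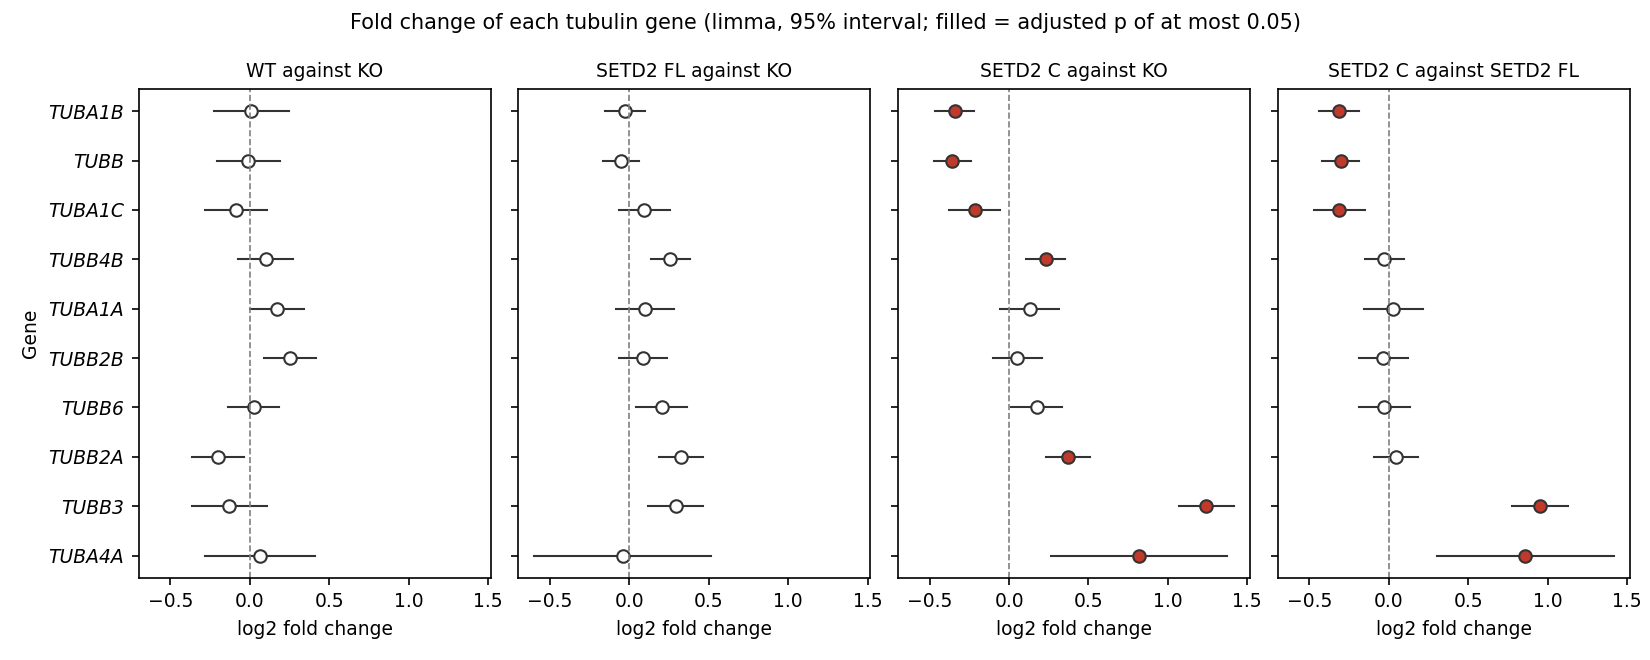
Log2 fold changes of the 10 tubulin genes in 4 comparisons, with 95% intervals from limma. Filled points passed an adjusted p of 0.05. No point is filled for WT or SETD2 FL against KO, 7 are filled for SETD2 C against KO and 5 for SETD2 C against SETD2 FL. The comparisons with KO in the second table share the KO libraries.

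No tubulin gene was called between WT and KO cells, where 3.17% of the 14746 genes tested in the first table were higher in WT and 1.32% lower by limma, and 3 members were at an unadjusted p under 0.05, as were 24.9% of all genes. No member reached a called 2-fold change (1.02% of all genes higher and 0.339% lower), and the groups did not overlap for 3 members that were higher in WT and 3 that were lower (29.4% and 27.4% of all genes). TUBB2B had a TPM of 44.6 and 54.7 in WT and 45.6 and 44.9 in KO. After scaling both WT libraries were higher (log2 fold change of 0.25, SE 0.07, adjusted p = 0.0885). TUBB2A, its neighbour, had a TPM of 40.3 and 46.6 in WT and 55.8 and 53.4 in KO (log2 fold change of -0.20, SE 0.07, adjusted p = 0.141), and TUBA1A was at 0.17 (SE 0.07, adjusted p = 0.192). TUBB3 had a TPM of 6.75 and 8.64 in WT and 9.66 and 8.74 in KO (log2 fold change of -0.13, 95% interval from -0.36 to 0.11). TUBB and TUBA1B were near 0 (-0.01, 95% interval from -0.21 to 0.19, and 0.01, 95% interval from -0.22 to 0.25).

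The isotype composition does not depend on the scaling, since it is a ratio within a library. TUBB made up 74.65% and 75.03% of the summed TPM of the 6 beta genes in KO, 70.6% and 71.3% in SETD2 FL cells and 65.9% and 66.6% in SETD2 C cells. The 3 groups did not overlap, with SETD2 FL between the other two. TUBB4B took most of the difference, at 14.8% and 14.5% in KO, 17.8% and 16.8% in SETD2 FL cells and 20.0% and 19.1% in SETD2 C cells. TUBB3 went from 0.499% and 0.497% in KO to 0.618% and 0.598% in SETD2 FL cells and 1.40% and 1.39% in SETD2 C cells. TUBB2A went from 2.47% and 2.67% to 3.20% and 3.15% and to 3.76% and 3.79%, in the same order of groups. These shares are a description, with no test.

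The KO libraries of the tables differed in composition, although they carry the same label. TUBB was 62.3% and 62.6% of the beta transcripts in WT and 63.9% and 63.7% in KO of the first table, and TUBB4B was 26.7% and 26.3% in WT and 25.03% and 25.2% in KO. The TUBB share of KO in the first table was thus below that of every library of the second, and further from KO of the second than SETD2 C was. The tables were made separately and no test was run across them.

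**Figure D4:**
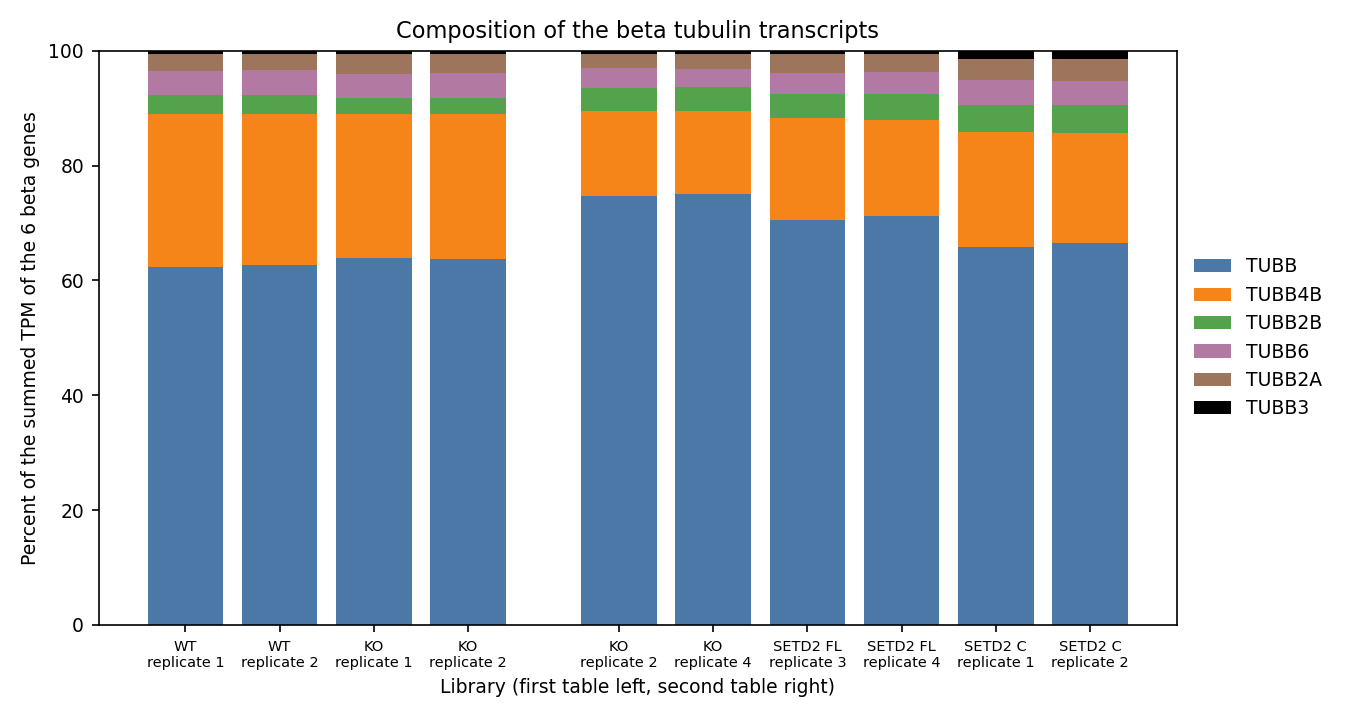
Share of each beta isotype in the summed TPM of the 6 beta genes, one bar per library, the first table on the left and the second on the right. The TUBB segment is 74.65% and 75.03% in KO, 70.6% and 71.3% in SETD2 FL cells and 65.9% and 66.6% in SETD2 C cells. In the first table it is 62.3% to 63.9%.

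Among the alpha genes the composition moved less. TUBA1B made up 72.8% and 71.1% of the summed alpha TPM in KO, 69.8% and 70.5% in SETD2 FL cells and 68.1% and 69.5% in SETD2 C cells. TUBA1A was 5.64% and 6.40% in KO, 6.86% and 5.99% in SETD2 FL cells and 7.90% and 8.05% in SETD2 C cells. TUBA1C, at 21.4% to 23.5%, overlapped between groups, and TUBA4A stayed below 1%, with 0.159% and 0.216% in KO and 0.518% and 0.335% in SETD2 C cells.

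The summed scaled TPM of the 4 alpha genes was 2212 and 2194 in KO, 2192 and 2234 in SETD2 FL cells and 1891 and 1744 in SETD2 C cells. That of the 6 beta genes was 1331 and 1318 in KO, 1316 and 1379 in SETD2 FL cells and 1180 and 1156 in SETD2 C cells. Both sums were lowest in the SETD2 C libraries, by 17.5% for alpha and 11.8% for beta relative to KO, with an exact two-sided permutation p of 0.333 for each, the smallest that 2 against 2 libraries allow. Without scaling the ratios on the log2 scale shrank from -0.28 to -0.13 for alpha and from -0.18 to -0.03 for beta. Without TUBB, the other beta genes summed to 338 and 329 in KO, 387 and 397 in SETD2 FL cells and 403 and 386 in SETD2 C cells, so the lower beta sum was carried by TUBB. The ratio of alpha to beta TPM was 1.66 and 1.67 in KO, 1.67 and 1.62 in SETD2 FL cells, 1.60 and 1.51 in SETD2 C cells, and 1.97 to 2.03 in the first table.

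The promoters of TUBB3 and TUBB4B, which rose from KO to SETD2 C, and of TUBB, which fell, are shown so that members moving in opposite directions can be compared, with motifs in capitals, as the 250 bases before the start of the reference transcript (RefSeq, GRCh38.p14). The motifs searched on both strands were CCAAT (the CCAAT box), GGGCGG (the GC box), ACGTG or GCGTG (the cores of the hypoxia response element, the first of which is also contained in the E box) and CACGTG (the E box).
TUBB3, chr16:89923092-89923341, plus strand: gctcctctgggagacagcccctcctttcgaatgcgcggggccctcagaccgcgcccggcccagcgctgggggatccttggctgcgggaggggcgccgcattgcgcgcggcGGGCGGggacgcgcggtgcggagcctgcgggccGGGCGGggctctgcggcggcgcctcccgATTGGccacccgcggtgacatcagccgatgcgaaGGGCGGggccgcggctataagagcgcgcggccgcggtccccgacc
TUBB4B, chr9:137241037-137241286, plus strand: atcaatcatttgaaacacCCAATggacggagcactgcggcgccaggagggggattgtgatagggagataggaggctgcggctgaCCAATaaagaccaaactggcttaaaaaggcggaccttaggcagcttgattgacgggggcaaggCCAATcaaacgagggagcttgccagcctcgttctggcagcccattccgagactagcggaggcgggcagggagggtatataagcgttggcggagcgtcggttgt
TUBB, chr6:30720102-30720351, plus strand: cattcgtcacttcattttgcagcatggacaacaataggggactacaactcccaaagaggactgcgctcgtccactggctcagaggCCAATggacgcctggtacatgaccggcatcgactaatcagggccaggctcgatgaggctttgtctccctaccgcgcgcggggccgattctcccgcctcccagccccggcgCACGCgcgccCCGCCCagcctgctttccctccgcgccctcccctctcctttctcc
The TUBB3 window held 3 GC boxes and 1 CCAAT box, that of TUBB4B 3 CCAAT boxes and no GC box, and that of TUBB 1 of each and 1 GCGTG. Over the 10 member promoters, 7 held a CCAAT box and 8 a GC box, against 32% and 42.6% of 35116 promoters of the same length. The member promoters were only those at the start of the reference transcript, while the 35116 also include alternative starts. The shares are therefore not of like sets. The hypoxia cores ACGTG and GCGTG stood in 2 and 3 of them (18.5% and 32.2% of all promoters), and the E box in 1 (6.34%). These matches are a description, and the members that rose and those that fell were not separated by any of the motifs.

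The genes whose pattern over the 6 libraries of the second table was most like that of TUBB3 were APOBEC3C, a cytidine deaminase (Pearson r of 0.9997), ZNF280A, a zinc finger gene (0.9995), and HSPB8, a small heat shock protein (0.9987). The log2 fold change from KO to SETD2 C was 0.56, 0.88 and 2.33. Of 15910 genes, 92 had a correlation of at least 0.99, with 6 libraries in 3 groups.

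Among the tubulins outside the 10, 6 of 12 were expressed highly enough to be tested. From KO to SETD2 C, TUBB4A, a beta isotype of brain, rose from 18.9 and 18.9 to 28.1 and 26.7 TPM (log2 fold change of 0.38, SE 0.07, adjusted p = 0.00536 from limma). TUBA8, a rare alpha isotype, fell from 1.16 and 1.29 to 0.64 and 0.79 TPM (log2 fold change of -0.60, SE 0.16, adjusted p = 0.0205). TUBG2 and TUBD1, for gamma and delta tubulin, were not called (0.15, adjusted p = 0.212, and -0.28, adjusted p = 0.0601).

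The machinery that acts on tubulin was read from lists of genes by role. In the folding list (prefoldin, the CCT chaperonin and the tubulin cofactors), 2 of 21 genes rose and 5 fell from KO to SETD2 C, where 21.1% of all genes rose and 15.1% fell, with a median log2 fold change of -0.03 against 0.05 over all genes. TBCD, a cofactor that binds beta tubulin during dimer assembly, fell by 0.66 on the log2 scale (SE 0.09, adjusted p = 0.00152), and its partner ARL2 fell by 0.48 (SE 0.05, adjusted p = 0.000718). TBCA, another beta tubulin cofactor, was at -0.26 (adjusted p = 0.00669), while the prefoldin subunit VBP1 rose (0.27, adjusted p = 0.00541).

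Of the genes for tubulin mRNA decay, 2 of 13 rose and 3 fell, beside 21.1% and 15.1% of all genes. TTC5, the autoregulation factor, had a TPM of 15.5 and 18.3 in KO, 16.3 and 16.6 in SETD2 FL cells and 17.4 and 16.8 in SETD2 C cells, and was not called (log2 fold change of -0.12, adjusted p = 0.314). The deadenylase subunit CNOT8 (0.41, adjusted p = 0.00184) and its partner BTG1 (0.38, adjusted p = 0.00576) rose, and CNOT10 (-0.40, adjusted p = 0.0185) and CNOT11 (-0.25, adjusted p = 0.0266) fell.

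Of the tubulin modifying enzymes, 3 of 18 tested rose and 5 fell, beside the same 21.1% and 15.1%. AGTPBP1 (0.49, adjusted p = 0.00208) and AGBL3 (0.44, adjusted p = 0.0159), carboxypeptidases that trim the tubulin tail, rose. TTLL12 (-0.57, adjusted p = 0.00115), a tubulin tyrosine ligase-like protein, and SVBP (-0.25, adjusted p = 0.0197), the partner of the vasohibin carboxypeptidases, fell. In the gamma tubulin ring complex, which nucleates microtubules, 1 of 13 rose and 4 fell (21.1% and 15.1% of all genes), with a median of -0.17 against 0.05 over all genes. MZT2A (-0.49, adjusted p = 0.000428), MZT2B (-0.57, adjusted p = 0.000828) and TUBGCP2 (-0.33, adjusted p = 0.00402) fell and MZT1 rose (0.22, adjusted p = 0.026). MZT2A and MZT2B are near-identical copies, so reads may be divided wrongly between them.

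Of 25 stabilisers and plus-end proteins, 6 rose and 1 fell, beside 21.1% and 15.1% of all genes. MAPRE3, an end-binding protein of neurons and muscle (0.50, adjusted p = 0.00475), and the spindle proteins TPX2 (0.27, adjusted p = 0.00618) and PRC1 (0.23, adjusted p = 0.00746) rose, and MAP4, the widespread microtubule-associated protein, fell (-0.41, adjusted p = 0.00138). Of 10 destabilisers and severing enzymes, 5 rose, beside 21.1% of all genes. STMN2, a stathmin of neurons, rose 2.72-fold (log2 fold change of 1.45, SE 0.21, adjusted p = 0.00218) from a mean TPM of 0.435 to 2.21. KATNAL1 (0.45, adjusted p = 0.00536) and FIGNL1 (0.40, adjusted p = 0.00374), of the severing enzyme family, also rose. KATNAL2, named after its value was seen, was the other gene of this list past 2-fold (1.06, adjusted p = 0.00646). From KO to SETD2 FL no gene of these lists was called by limma. Between WT and KO, STMN2 was lower in WT, at 0.06 and 0.12 TPM against 0.92 and 0.76 in KO (log2 fold change of -1.14, adjusted p = 0.0327 from limma). STMN2 met the filter of 0.5 TPM in 2 libraries only through KO, where it was higher, so this call is a description. TUBGCP6 of the gamma tubulin ring complex, named after its value was seen, was higher in WT (0.56, adjusted p = 0.0186).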

How the data were processed

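RNA of HEK293T cells was sequenced as paired reads of 75 bases after ribosomal depletion and poly(A) enrichment. The authors aligned reads to hg38 with Ensembl 96 gene models using STAR 2.6.1c, estimated TPM per gene with RSEM 1.3.0 and deposited 2 TPM tables, normalized within each library only. TPM keeps no depth, so no counting error could be derived. The strand setting of the counting is not given in the sources used here, so members and their antisense genes cannot be told apart with certainty.

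The 10 members and the lists of related genes were chosen with earlier results of these data known. Protein-coding and lncRNA genes (GENCODE 44, GRCh38; 58472 of 58884 genes matched by identifier and 31 by symbol) entered the tests if 2 or more libraries reached 0.5 TPM. Library scaling used the median ratio of genes that reached 1 TPM throughout the table, and log2(scaled TPM + 0.5) was tested with limma 3.58.1 in R 4.3.3 (eBayes with trend) and Benjamini-Hochberg adjustment over all genes tested. Genes were called at an adjusted p of at most 0.05. The 6 libraries of the second table shared 1 fit. Sums over members were compared by an exact two-sided permutation test. Beside the 10 members, the genes named were SETD2, TTC5, up to 4 genes of each list by adjusted p from KO to SETD2 C, and the 3 genes most like TUBB3 in pattern; 1 gene that this rule names is not reported here. Alternatives were other pseudocounts, filters, scalings, variance priors and sets of libraries. The procedure was tested on simulated data. The 14 ChIP samples were not analysed here.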

Additional observations from a re-analysis of the deposited data

How the results depend on the processing

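With 2 libraries a group and no depth, small fold changes rest on few degrees of freedom, and leaving out a library leaves a group with 1 library that is assumed to vary like the others. From KO to SETD2 C the 10 members kept their direction in all 13 settings. Requiring a 2-fold change left 1 higher and 0 lower from KO to SETD2 C and 0 and 0 from SETD2 FL to SETD2 C. Quantile normalization left 1 lower from KO to SETD2 C. eBayes without trend left 2 higher from KO to SETD2 C and 1 from SETD2 FL, and testing without the filter left 1 higher from SETD2 FL. Without scaling 1 was lower from SETD2 FL to SETD2 C. Without mitochondrially encoded genes and SETD2, 1 was higher from KO to SETD2 FL. Leaving out a library gave 2 to 4 higher from KO to SETD2 C, the lowest without SETD2 C replicate 1, and 1 to 2 higher from SETD2 FL to SETD2 C, the lowest without SETD2 FL replicate 4 or SETD2 C replicate 1. The cause of these changes was not tested.

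Without scaling the median of all genes moved to -0.11 for WT against KO and to 0.16 for SETD2 C against SETD2 FL, so sign changes under that setting include a shift common to all genes. Members that were not called changed sign as follows, in log2 fold change. For WT against KO these were TUBA1B (-0.12), TUBA4A (-0.053), TUBB4B (-0.031) and TUBB6 (-0.11) without scaling, TUBA1B (-0.068) and TUBA4A (-0.013) with quantile normalization, and TUBA1B (-0.0080) without mitochondrially encoded genes and SETD2. Leaving out a library gave -0.024 to 0.042 for TUBA1B, -0.073 to 0.20 for TUBA4A, -0.031 to 0.0096 for TUBB and -0.0031 to 0.054 for TUBB6. For SETD2 FL against KO they were TUBA1B (0.088) with quantile normalization, TUBA1B (0.034), TUBA4A (0.014) and TUBB (0.011) without mitochondrially encoded genes and SETD2, and TUBA4A on leaving out a library (-0.24 to 0.15). For SETD2 C against SETD2 FL they were TUBB2B (0.093), TUBB4B (0.10) and TUBB6 (0.098) without scaling, TUBB2B (0.0062), TUBB4B (0.030) and TUBB6 (0.024) with quantile normalization, and TUBB4B (0.0061) and TUBB6 (0.0042) without mitochondrially encoded genes and SETD2. Leaving out a library gave -0.056 to 0.11 for TUBA1A, -0.11 to 0.045 for TUBB2B, -0.078 to 0.021 for TUBB4B and -0.090 to 0.030 for TUBB6.

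The log2 ratios of the summed levels moved by more than the spread between replicates in the following cases. For WT against KO the alpha sum was -0.13 without scaling and -0.046 with quantile normalization, the beta sum was -0.10 without scaling, and leaving out a library gave -0.043 to 0.030 for alpha and 0.0021 to 0.038 for beta. For SETD2 FL against KO the alpha sum was 0.095 with quantile normalization and 0.070 without mitochondrially encoded genes and SETD2, the beta sum was 0.089 in the latter, and leaving out a library gave -0.0097 to 0.059 for beta. For SETD2 C against KO the alpha sum was -0.13, -0.12 and -0.18 and the beta sum -0.033, -0.10 and -0.084 without scaling, with quantile normalization and without mitochondrially encoded genes and SETD2, and leaving out a library gave -0.34 to -0.22 for alpha. For SETD2 C against SETD2 FL the alpha sum was -0.16 without scaling and -0.22 with quantile normalization, and the beta sum was -0.079, -0.12 and -0.17 under the same 3 settings as above. Leaving out a library gave -0.35 to -0.23 for alpha and -0.24 to -0.17 for beta.

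The WT and KO libraries share the replicate numbers 1 and 2, and with a replicate block no member was called, 0 higher and 0 lower, while the block raised the genes called from 467 to 827 higher in WT and from 194 to 442 lower. Deviations of WT replicate 1 correlated with those of KO replicate 1 at 0.15 across 14746 genes, which with 2 pairs does not show that the numbers pair the libraries. No paired analysis was possible in the second table because its groups share at most 1 number.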

Other observations

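The antisense genes given here, which overlap tubulin genes, had TPM values that differed within a genotype. In the first table each was higher in replicate 1 than in replicate 2, in WT and in KO. TUBA1B-AS1 (listed as AC011603.2), which overlaps TUBA1B and TUBA1A on the opposite strand, was at 38.9 and 16.4 in WT and 32.6 and 16.9 in KO of the first table, and AL662797.1, opposite TUBB, was at 9.12 and 5.06 in WT and 8.31 and 4.49 in KO. In the second table TUBA1B-AS1 was at 44.7 and 53.2 in KO, 32.7 and 31.1 in SETD2 FL cells and 27.5 and 22.1 in SETD2 C cells, and AL662797.1 at 11.4 and 13.5, 8.10 and 6.57, and 6.58 and 3.95. AC125611.3, opposite TUBA1C, was at 4.03 and 2.02 in WT and 3.78 and 1.92 in KO of the first table. In the second it was at 4.44 and 6.46 in KO, 5.09 and 5.15 in SETD2 FL cells and 3.65 and 2.67 in SETD2 C cells. No test was run on these genes.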
